A study of Mus musculus with 39 samples.

Results

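The subject is the baseline transcriptome of 10 AB1-HA mesothelioma tumours from mice given PBS, chosen as every sample whose treatment label is PBS, out of 39 tumours in the whole series. All tumours grew from 1 line, AB1-HA, which is AB1 mouse mesothelioma carrying a transfected influenza haemagglutinin gene, injected under the skin of BALB/c mice. Per the methods, female and male mice aged 8 to 10 weeks were used, tumours were taken on day 9 after inoculation and the tissue around them was cut away. The labels give neither age nor sex for a single mouse, nor whether the PBS contained the DMSO in which the tretinoin of the treated mice was dissolved. RNA of the whole tumour was sequenced and read counts per gene were deposited. The titles fall into a series that begins with 1 (PBS 11 to PBS 15) and a series that begins with 5 (PBS 51 to PBS 55). What this first digit stands for is not stated, nor do the labels say that each tumour came from a separate animal, so p-values measure the spread between these samples, which may be partly technical.

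Mesothelioma is a cancer of the lining of the chest and abdominal cavities. Its epithelioid form keeps keratins and mesothelial proteins, whereas its sarcomatoid form resembles a fibroblast-like, matrix-producing cell. A tumour grown under the skin also contains host fibroblasts, vessels and leukocytes, and its edge lies beside fat and skeletal muscle. In a bulk sample, fewer cells of a type and less RNA per cell cannot be told apart.

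Total counts ran from 16155683 in PBS 52 to 23114796 in PBS 51, and 19915 to 20716 genes had at least 1 count in a tumour. Values below are CPM, a gene's share of its library's counts scaled to a common total after TMM normalisation, unless stated otherwise, and the tumours correlated with each other at r of at least 0.975 on the log2 scale. PBS 53 stood apart in 2 library measures. Copies of mitochondrial genes held 0.280% of its counts, against 1.54% to 3.16% in the other tumours, and the ribosomal RNA gene Rn18s-rs5 reached 2002 CPM, against 122 to 190.5. The part of these differences in the results below was not tested. The results that PBS 53 moves most are also given without it. The table covered 85.3% of the protein-coding genes of GENCODE M21, with 97.7% on chromosomes 1 to 9, 11 and X and 61.2% on chromosomes 10 and 12 to 19. Genes outside it, among them Msln, Krt8, Acta2, Adgre1, Lyz2, Cd74, Gzmb and Ifng, were not analysed here.

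The most abundant transcripts were those of matrix and of the general machinery of growing cells. Col3a1, the fibrillar collagen of soft connective tissue (chr1:45311538-45349706 on GRCm38), had the most counts, with 10005 in PBS 14, 14708 at the median and 16291 in PBS 15. Eef1a1, the elongation factor that brings transfer RNAs to the ribosome, had 8037 in PBS 55, 8792 at the median and 9606 in PBS 12. Col1a2, a chain of type I collagen (chr6:4504814-4541544), had a mean of 5413 ± 843 (SD, n = 10). The cytoskeletal genes Actb and Vim had 4132 ± 217 and 4031 ± 492 (SD, n = 10), Vim encoding the intermediate filament of mesenchymal cells. Fn1, encoding fibronectin, had 3849.7 ± 461 (SD, n = 10). The order of Actb, Vim and Fn1 did not hold within their spread, since their ranges overlapped. The matrix genes Bgn, Col1a1, Col6a1 and Sparc were also among the 20, at means of 2786, 2335, 2315 and 2059.6 CPM. Together the 20 genes took 8.24% of all counts, on average over the tumours.

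Of these 20 genes, 16 were protein-coding and 4 were annotated as unprocessed pseudogenes, Gm10925, Gm28661, Gm28437 and Gm29216. They lie side by side on chromosome 1, from Gm28437 (chr1:24613189-24613971) to Gm29216 (chr1:24615706-24616197), in a nuclear copy of mitochondrial DNA. Of the 31-base words in Gm10925, 100% were also in the mitochondrial gene mt-Atp6, and for Gm28661 and mt-Co2 the share was 100% as well. Reads of mitochondrial transcripts and of these copies could therefore not be told apart. Gm10925 had 665 in PBS 53, 7769 at the median and 10748 in PBS 11, and 4854 to 10748 CPM without PBS 53.

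**Figure D1:**
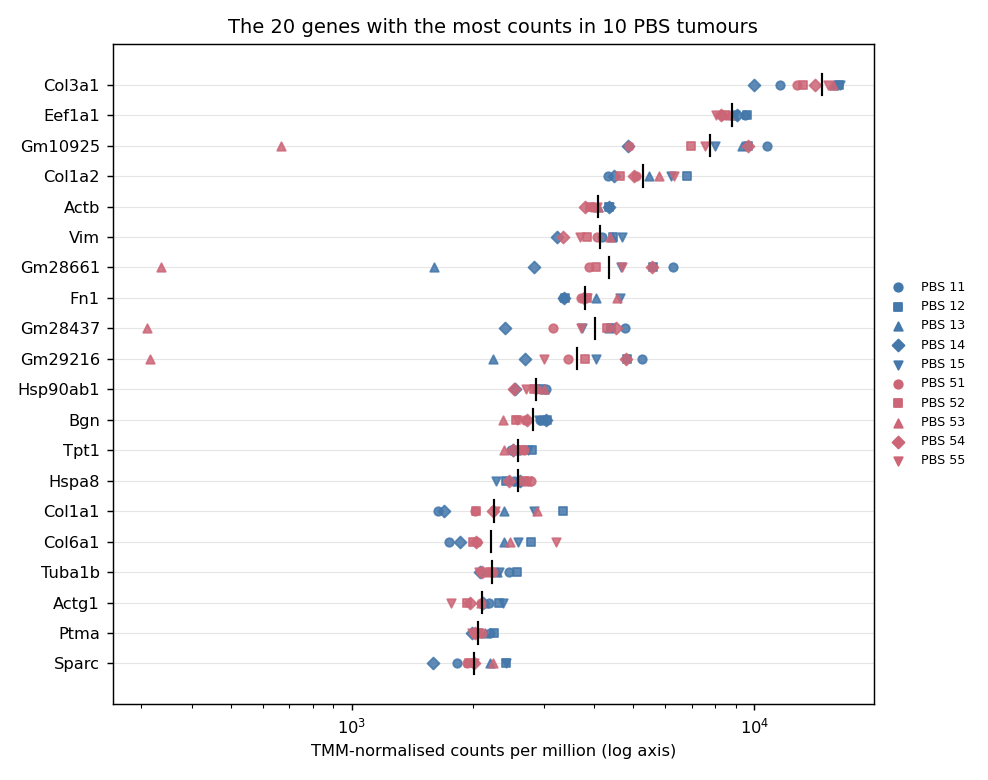
The 20 genes with the highest mean CPM (log axis), 1 point per PBS tumour, with the median as a bar; blue marks the series beginning with 1 and red the series beginning with 5. Col3a1 spans 10005 to 16291 CPM, and PBS 53 lies far to the left for the copies of mitochondrial genes, at 665 CPM for Gm10925.

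Counts favour long transcripts, so genes were also compared as TPM, which also divides by the length of the exons. On this scale Eef1a1 led the protein-coding genes at 10233 ± 515 TPM (SD, n = 10). It was followed by Rplp1, a protein of the ribosomal stalk, at 6095 ± 585 TPM, and by B2m, the light chain of MHC class I, at 5306 ± 1225 TPM. Actb (4484 ± 242) and Col3a1 (4177 ± 673) came next, and their TPM values were within 1 SD of each other. Spp1, which encodes the secreted phosphoprotein osteopontin, had 3175 ± 199 TPM.

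Of the classical mesothelial markers in the table, few were expressed above trace level. Of 20 listed mesothelial and mesothelioma genes, 16 were in the table and 6 averaged at least 1 CPM. Wt1, the transcription factor used to recognise mesothelium, had 0.261 in PBS 11, 0.717 at the median and 1.02 in PBS 15. Calb2 (calretinin) had 0 to 0.485 CPM, Upk3b 0 to 0.0611 and Krt7 0.223 to 1.09, and Muc16 had no count in any tumour. Pdpn (podoplanin) was present at 58.8 to 77 CPM, Cdh2 (N-cadherin) at 87.8 to 109.5 and Cav1, the coat protein of caveolae, at 842 to 1369. The thrombomodulin gene Thbd had 24.9 to 41 CPM, the chromatin protein gene Hmga2 414 to 582 and Aldh1a2 1.29 to 4.11. RNA of the tumours therefore held next to none of calretinin, Upk3b or the keratins Krt7, Krt19 and Krt5, while Pdpn, Cdh2 and Cav1 are known from fibroblasts as well. The listed markers Msln, Upk1b, Krt8 and Krt18 were not analysed here.

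Mesenchymal genes were abundant in the tumours, while the epithelial genes in the table were scarce. Bulk RNA does not assign either to tumour or host cells. Of the listed epithelial genes, Epcam, Ovol1 and Tjp3 were not analysed here. All 10 mesenchymal genes in the table averaged at least 1 CPM, and their sum was 9175 in PBS 14, 10559 at the median and 12095 in PBS 15. Most of the sum came from Vim, Fn1 and Spp1, with means of 4031, 3850 and 1802 CPM. The transcription factors Zeb1 and Zeb2, which repress epithelial genes, had 98.6 to 126 and 158 to 220.1 CPM, Prrx1 had 180.5 to 230.0 and Snai1 13.7 to 24.7. Of the 7 epithelial genes in the table, 1 averaged at least 1 CPM. This was Cdh1 (E-cadherin), at 8.43 in PBS 12, 12.1 at the median and 15 in PBS 15, whereas Krt14 had 0 to 2.5 and Cldn3, Cldn4, Cldn7, Esrp1 and Grhl2 stayed below 1 CPM in each of the 10 tumours.

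Among genes often lost in mesothelioma, Cdkn2a was near 0 and the others were expressed evenly between tumours. Cdkn2a, the cell-cycle inhibitor locus, had 0.0579 in PBS 54, 0.155 at the median and 0.494 in PBS 13, a mean of 0.47 ± 0.306 TPM (SD, n = 10). Its neighbour Mtap, of methionine salvage, had 9.59 to 14.8 CPM. Bap1, a deubiquitinase, had 87.3 to 97.1 CPM, with a mean of 57.3 ± 2.2 TPM (SD, n = 10). Nf2, an activator of the Hippo pathway, had 161 to 191, and the chromatin genes Setd2 and Pbrm1 had 119 to 149.9 and 182 to 232. The Hippo effectors Yap1, Wwtr1 and Tead1 had 102 to 119, 131 to 161 and 192 to 243 CPM. Their target genes Ctgf and Cyr61 had 100 to 173 and 77.4 to 155 CPM. The receptor tyrosine kinase Axl reached 545 to 668 CPM.

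Proliferation genes varied between tumours about as much as a typical gene. All 26 genes of the proliferation list in the table averaged at least 5 CPM, and their sum was 5004 in PBS 55, 5274 at the median and 5617 in PBS 11, a coefficient of variation of 3.67%. Mki67, the nuclear antigen of cycling cells, had 628 in PBS 12, 768 at the median and 819.6 in PBS 55. Most of the list did not share this order. PBS 55 was lowest in 12 of the 26 genes, against 12.4% of all ranked protein-coding genes. PBS 12 was highest in 10 of the 26, against 25.5%. Top2a, a topoisomerase of dividing cells, had 575 to 693 CPM, and Ccnd1, which drives entry into the cycle, 592 to 725. The median SD over the 26 genes was 0.10 on the log2 scale, against 0.11 over all 9660 protein-coding genes with a mean of at least 5 CPM.

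Glycolysis genes summed to 5414 in PBS 54, 6190.5 at the median and 6786 in PBS 14, and PBS 14 was highest in 8 of the 14 genes, against 18.8% of all ranked protein-coding genes. Among these, Slc2a1, the glucose transporter GLUT1, had 26.9 in PBS 12, 32.8 at the median and 52.7 in PBS 14, and Slc16a3, a lactate exporter, 10.3 in PBS 12, 17.4 at the median and 41.1 in PBS 14. The hypoxia list was also highest in PBS 14, in 9 of 11 genes, with 43.9 in PBS 12, 55 at the median and 66.7 in PBS 14 for Vegfa, the growth factor of vessels.

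Matrix genes made up the largest of the lists by CPM. The 23 collagen and matrix genes in the table summed to 31169.5 in PBS 14, 39705 at the median and 45519.9 in PBS 12, a 1.46-fold range. PBS 14 was lowest in 12 of the 23 genes, against 19.3% of all 9660 ranked protein-coding genes. Col1a1 had 1639.5 in PBS 11, 2255 at the median and 3354 in PBS 12, and Col6a1, of the microfibrils around cells, 1747 in PBS 11, 2221 at the median and 3206 in PBS 55. The collagen chaperone Serpinh1 had 752 to 1049 CPM. Among matrix proteases, Mmp14, bound to the membrane, had 506 to 654 CPM, Mmp2 had 108 to 197 and Mmp9 had 139.6 in PBS 54, 293 at the median and 546 in PBS 11. The inhibitor Timp2 had 492 to 651 CPM.

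The fibroblast and vessel lists had lower sums than the matrix list, which holds more genes, so the sums do not compare amounts of cells. Of the listed genes, Dcn, Lum and Acta2 of fibroblasts and Cldn5 of endothelium were not analysed here. The 11 fibroblast genes summed to 982 in PBS 11, 1201 at the median and 1377 in PBS 53, among them Pdgfra at 189.9 to 297 CPM and Postn at 204 to 345. Pi16, a marker of resting connective tissue fibroblasts, had 53.2 in PBS 14, 89.3 at the median and 149 in PBS 53. Fap had 11.2 to 18.2 CPM. The 14 endothelial genes summed to 433 in PBS 52, 480.1 at the median and 518 in PBS 15. Pecam1, an adhesion molecule of endothelium, had 88.1 to 109 CPM and Cdh5 69.6 to 105. The lymphatic gene Lyve1 had 8.63 in PBS 14, 17 at the median and 28.8 in PBS 53. Rgs5, a marker of pericytes, had 72.6 to 102 CPM.

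Macrophage transcripts were the most abundant of the leukocyte lists. All 14 macrophage genes in the table averaged at least 5 CPM and summed to 3798 in PBS 51, 4360.1 at the median and 5590.4 in PBS 14. The complement genes C1qa, C1qb and C1qc had 488 to 798, 323 to 575 and 367 to 667 CPM. Csf1r, the receptor for the growth factor of macrophages, had 507 in PBS 52, 559.5 at the median and 802 in PBS 14, and the gene of its ligand, Csf1, had 449.7 in PBS 55, 476 at the median and 554 in PBS 11. The mannose receptor Mrc1 had 382 to 575 CPM and the nitric oxide synthase Nos2 4.97 to 17.6. Ccr2, the chemokine receptor of monocytes, had 281 in PBS 12, 329 at the median and 602 in PBS 14.

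Lymphocyte transcripts were sparse, and PBS 14 was highest in 13 of 13 T cell genes, 7 of 8 CD8 and cytotoxic genes and 6 of 7 regulatory T cell genes, against 18.8% of all 9660 ranked protein-coding genes. The 13 T cell genes summed to 118 in PBS 11, 147 at the median and 244 in PBS 14. Cd3e, a chain of the T cell receptor complex, had 6.36 in PBS 11, 8.22 at the median and 11.9 in PBS 14, and Cd4 had 12.2 in PBS 11, 14.9 at the median and 20.3 in PBS 14. Cd8a had 5.14 in PBS 12, 6.25 at the median and 15.4 in PBS 14. Foxp3, the transcription factor of regulatory T cells, had 11.9 in PBS 12, 15.6 at the median and 20.1 in PBS 14. Per length, Foxp3 averaged 9.83 ± 1.79 TPM and Cd8a 6.13 ± 2.63 TPM (SD, n = 10), values whose SDs overlap. The NK cell receptor gene Ncr1 had 10.7 in PBS 12, 13.6 at the median and 26.7 in PBS 14. B cell genes were low, with Ms4a1 at 0.344 to 1.78 CPM, while Ighm had 30.6 to 65.4.

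Neutrophil genes differed in level. The surface marker Ly6g had 0 to 0.112 CPM, and the granule genes Camp, Ngp, Mmp8 and Ltf had at most 0.142, 0.502, 0.732 and 1.4. The calcium-binding genes S100a8 and S100a9 had 2.41 to 5.98 and 4.32 to 15.1 CPM, Lcn2, a granule protein also made by other cells, had 1.89 to 17.2, and the receptor genes Csf3r and Cxcr2 had 33 to 79.8 and 4.47 to 14. Cpa3, a protease of mast cells, had 38.4 to 57.7 CPM and the receptor gene Kit 23.4 to 31.4, whereas Epx, of eosinophils, had no count. Dendritic cell genes included Xcr1 at 6.14 to 17 CPM, Ccr7 at 13.1 to 30.7 and Siglech at 6.48 to 14.8.

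Xist, the RNA of the silenced X chromosome, had 261 in PBS 12, 429 at the median and 528 in PBS 14. Of 4 genes of the Y chromosome, Ddx3y, Eif2s3y and Uty had no count in any of the 10 tumours, and Kdm5d had at most 0.0539 CPM.

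**Figure D2:**
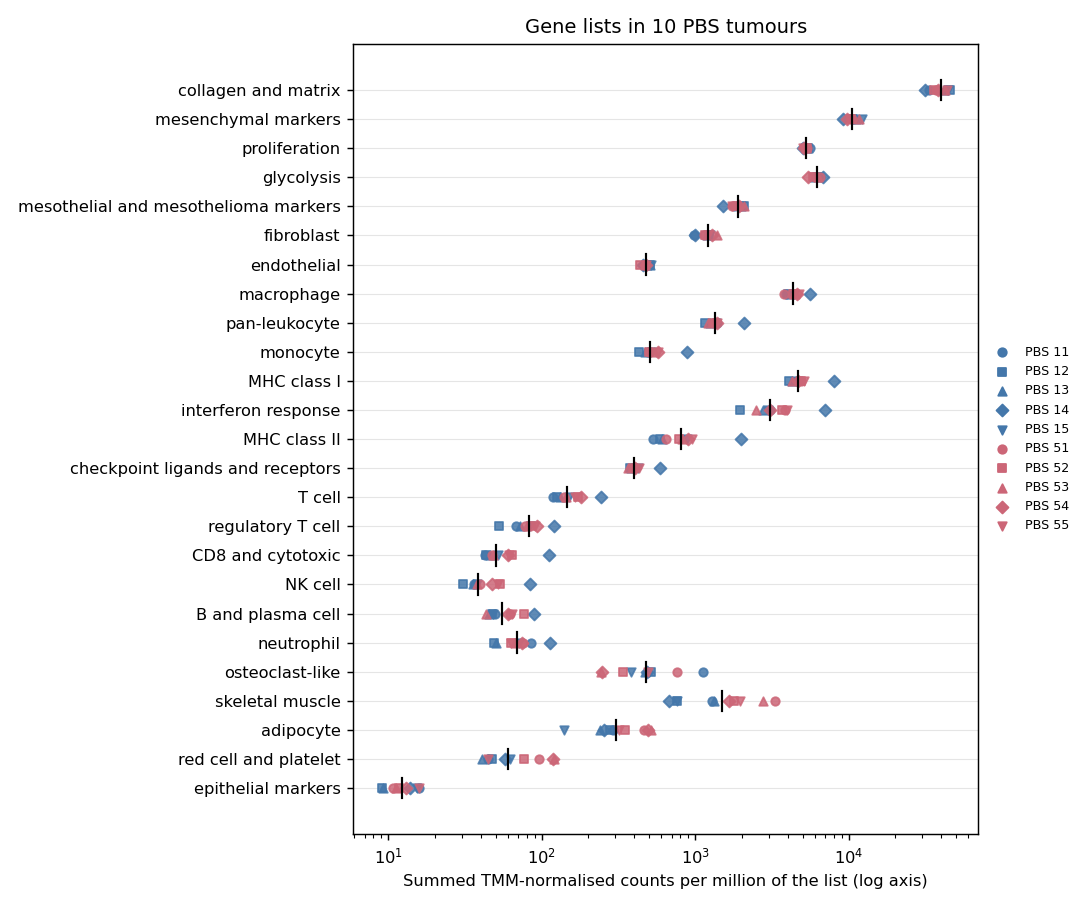
Summed CPM (log axis) of 25 gene lists, 1 point per PBS tumour, with the median as a bar; blue and red mark the series beginning with 1 and 5. PBS 14 is highest in the pan-leukocyte, macrophage, T cell, NK cell, MHC and interferon lists, with 7013 CPM for interferon response, while the skeletal muscle list runs from 671 to 3285 CPM.

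Variation between the tumours was measured as the SD of log2 CPM over the 10 tumours, for 10556 genes with a mean of at least 5 CPM. The median SD was 0.12. Of the 100 most variable genes, 81 were pseudogenes, although pseudogenes made up 5.95% of the genes ranked, and 17 were protein-coding. The last gene inside the 100 was Serpina3g (SD 0.90) and the first outside was Gm8979 (SD 0.89). All 30 of the most variable genes had an SD of at least 2.29, 28 of them processed pseudogenes, transcribed or not, and the others Amd2 and Rpl10-ps3. PBS 53 was the most deviating tumour for 21 of the 100, and without it 76 of the 100 most variable genes were pseudogenes.

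Processed pseudogenes are inserted copies of spliced messenger RNAs, and 28 of the 81 were below 1 CPM in their lowest tumour and above 10 CPM in their highest. Rpl21-ps6 (chr17:55915403-55915870, minus strand) varied most, with 58.3, 0.112, 0, 37, 22.9 in PBS 11 to 15 and 18.3, 46.9, 0, 0.0579, 44.9 in PBS 51 to 55. Its parent Rpl21, a ribosomal protein gene, had 11 to 15.5 CPM. Rps6-ps4 (chr2:75191073-75191822, minus strand) had 8.02, 8.43, 8.33, 230.3, 146 in PBS 11 to 15 and 7.15, 8.68, 309, 330.4, 4.84 in PBS 51 to 55. PBS 14, 15, 53 and 54 were therefore high and the other 6 tumours low, while Rps6 itself had 851 to 997 CPM. Rpl10-ps1 had 0.412 in PBS 55, 0.813 at the median and 233 in PBS 52, and Rpl10 had 1055 to 1212 CPM.

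Copy and parent can differ at few bases over the length of a read. A stretch of 100 bases from the middle of the coding sequence, about the length of 1 read, is given for the most variable pseudogene and its parent, and for Rps6-ps4, with capitals at the bases that differ (GENCODE M21 transcripts, 5′ to 3′). Rpl21-ps6 and Rpl21 differ at 2 of 100 bases, and Rps6-ps4 and Rps6 at 0.
Rpl21-ps6: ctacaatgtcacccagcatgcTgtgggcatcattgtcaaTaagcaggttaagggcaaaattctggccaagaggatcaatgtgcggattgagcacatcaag
Rpl21: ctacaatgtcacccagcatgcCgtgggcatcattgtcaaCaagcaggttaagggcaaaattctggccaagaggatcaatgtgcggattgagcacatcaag
Rps6-ps4 and Rps6: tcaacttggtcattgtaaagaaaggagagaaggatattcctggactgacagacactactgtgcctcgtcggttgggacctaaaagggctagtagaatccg

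Over the 81 pseudogenes, a median of 78.5% of the 31-base words were also in a transcript of 1 protein-coding or mitochondrial gene, taken as the parent, and 70 shared at least 50%. The parent was in the table for 66 pseudogenes, with a median SD of 0.09, while the median of all genes was 0.12. Because the pseudogenes were chosen for a high SD, a lower SD of the parents was fixed by that choice. How reads that match several places were assigned is not stated. The counts of these pseudogenes and of their parents, Rpl21 among them, are therefore uncertain. The same holds for Amd2, Rpl10-ps3, Gm8797, Gm14698 and Gm11273, which are annotated as protein-coding and share 74.4% to 96.6% of their words with another gene. The cause of the variation was not tested.

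**Figure D3:**
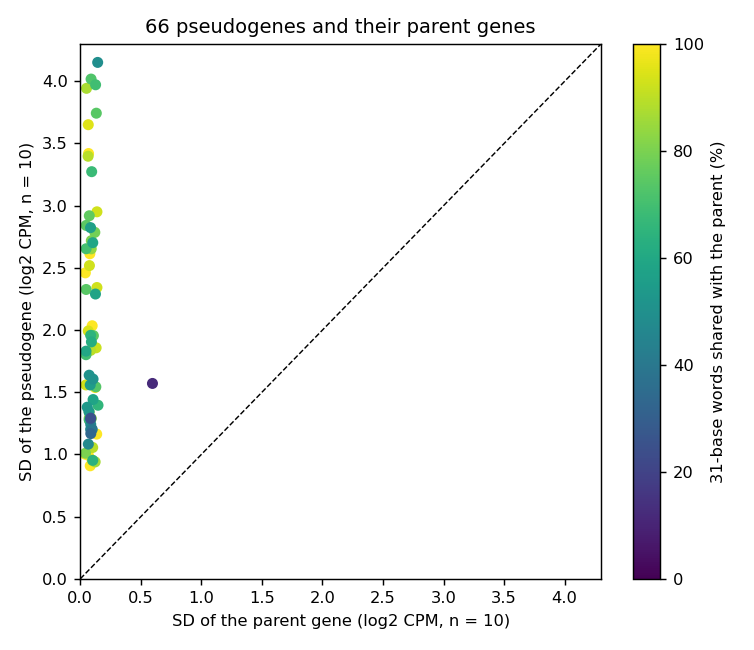
SD of log2 CPM over 10 PBS tumours of 66 pseudogenes (vertical axis) against that of their parent genes (horizontal axis), with colour for the percentage of shared 31-base words and a dashed line of equal SD. The pseudogenes were chosen for a high SD, so that the points lie above the line, and the median SD of the parents is 0.09.

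Ranked alone, the 100 most variable protein-coding genes fell largely into 4 groups. This ranking was added after the pseudogenes were seen. The last gene inside was Irgm2 and the first outside Hk3, both with an SD of 0.63. Each group was described by a lead gene, and a gene was counted with the lead it followed most closely at a correlation of at least 0.8 over the 10 tumours. Cxcl9 led 22 genes, the muscle gene Ckm 33, Acp5 6 and Adipoq 9, which leaves 30 genes. The groups were chosen on these values, so no test is attached to them. Members that follow 1 lead share their highest and lowest tumours largely through that choice, so such counts below only describe the groups. Over all 9660 ranked protein-coding genes, PBS 14 was highest in 18.8%, PBS 51 in 4.95% and PBS 11 in 10.4%.

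The group of Cxcl9 held 7 genes of the interferon response list, among them Igtp and Irgm2. It also held further guanylate-binding proteins and interferon-inducible GTPases such as Tgtp1, and PBS 14 was the highest tumour in 22 of 22. Cxcl9, a chemokine that attracts T cells, had 111, 51.9, 100.2, 512, 123 in PBS 11 to 15 and 196, 185, 100.4, 156, 190.3 in PBS 51 to 55. PBS 14 was far above the other 9 tumours, and PBS 12 was the lowest. Gbp4, a guanylate-binding protein of cell-autonomous defence, had 71.5 in PBS 12, 174 at the median and 699 in PBS 14. Ubd, a ubiquitin-like modifier, had 1.51 in PBS 12, 5.01 at the median and 19.1 in PBS 14, and Acod1, which makes itaconate in macrophages, had 3.24 in PBS 12, 9.6 at the median and 47.4 in PBS 14. Cd274, encoding PD-L1, had 19.1 in PBS 12, 42.1 at the median and 124 in PBS 14. The serpin Serpina3g had 17.2 in PBS 12, 40.1 at the median and 181 in PBS 14. Without PBS 14, 5 of the 22 genes stayed among the 100 most variable protein-coding genes, and without PBS 12, 15.

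The interferon response list shares 7 genes with this group. Of its 26 genes, 23 were highest in PBS 14 and 22 lowest in PBS 12, against 18.8% and 19.6% of all ranked protein-coding genes. The sum was 1962 in PBS 12, 3055 at the median and 7013 in PBS 14, and the 3.58-fold range became 2.01-fold without PBS 14. Irf1, a transcription factor, had 146 in PBS 12, 221 at the median and 479.9 in PBS 14. PBS 14 was also highest in 9 of 9 MHC class I genes, 5 of 5 MHC class II genes and 6 of 6 pan-leukocyte genes. The low end differed between lists, PBS 12 being lowest in 8 of 9 MHC class I genes and PBS 11 in 4 of 5 MHC class II genes and 9 of 13 T cell genes. H2-Ab1, a chain of MHC class II, had 119.8 in PBS 11, 171 at the median and 435 in PBS 14. Tap1, the peptide transporter, had 147 in PBS 12, 206 at the median and 441 in PBS 14. The pan-leukocyte sum was 1162 in PBS 12, 1338 at the median and 2073 in PBS 14, so leukocyte genes were high together with the interferon genes in PBS 14, and their part in the result was not tested.

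The group of Ckm held 12 genes of the skeletal muscle list and others of the contractile apparatus, and PBS 51 was highest in 29 of 33. Ckm, the creatine kinase of muscle, had 97.5, 63.4, 107, 40.7, 59.5 in PBS 11 to 15 and 247, 144, 233, 134, 161 in PBS 51 to 55. Each tumour of the series beginning with 5 was above each of the series beginning with 1. Acta1, the actin of skeletal muscle, had 125 in PBS 14, 261 at the median and 522 in PBS 51. Myh4, a fast myosin, had 105 in PBS 12, 304 at the median and 685 in PBS 51. Myh1, another, had 49.1 in PBS 14, 118 at the median and 427 in PBS 51. Pvalb, a calcium buffer of fast fibres, had 4.15 in PBS 14, 19.4 at the median and 36 in PBS 51. Ttn, the giant spring of the sarcomere, had 70.4 in PBS 12, 149 at the median and 354 in PBS 51. The list of 15 muscle genes summed to 671 in PBS 14, 1491 at the median and 3285 in PBS 51. Without PBS 51, 22 of the 33 genes stayed among the 100, and without PBS 53, 27.

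The group of Acp5 held Acp5, Atp6v0d2 and Ocstamp, known from osteoclasts, the bone-resorbing relatives of macrophages, with Cyp2s1, Rufy4 and Slc9b2. Acp5, an acid phosphatase, had 412, 181, 159, 157, 128 in PBS 11 to 15 and 265, 114, 70, 76.9, 150.4 in PBS 51 to 55. PBS 11 was highest in 6 of 6 genes and PBS 51 came second for Acp5. Ctsk, the collagen-cleaving cathepsin K, had 144 in PBS 54, 263 at the median and 577 in PBS 11. Atp6v0d2, a proton pump subunit, had 20.8 in PBS 53, 40.9 at the median and 116 in PBS 11, and Ocstamp, which takes part in cell fusion, had 2.32 in PBS 54, 6.34 at the median and 16.5 in PBS 11. The receptor genes Calcr and Oscar stayed low, at 0.0579 to 1.2 and 0.406 to 2.4 CPM, so that 4 of the 7 osteoclast-like genes in the table averaged at least 1 CPM. Csf1r, by contrast, was highest in PBS 14. Mmp9, which was not among the 100, was also highest in PBS 11. Without PBS 11, 1 of the 6 genes stayed among the 100.

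The group of Adipoq held 4 genes of the adipocyte list and others of lipid storage, such as Plin4, Gpd1 and Dgat2, and was lowest in PBS 15. Adipoq, encoding adiponectin, had 14.8, 12.6, 10.4, 9.06, 3.27 in PBS 11 to 15 and 26, 15.4, 25.3, 28, 13.2 in PBS 51 to 55. Plin1, which coats lipid droplets, had 2.96 in PBS 15, 11.6 at the median and 22 in PBS 51, Cidec had 3.83 in PBS 15, 15.2 at the median and 26.8 in PBS 53 and Car3 had 44.5 in PBS 15, 126 at the median and 262 in PBS 54. All 8 genes of the adipocyte list with a mean of at least 1 CPM were lowest in PBS 15. Without PBS 15, 0 of the 9 genes stayed among the 100. Hp, encoding haptoglobin, was part of this group at 28.2 in PBS 15, 116 at the median and 150.2 in PBS 53.

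Of the 30 other genes, 7 were major urinary protein genes, which are near-identical copies of each other and therefore uncertain one by one. All 7 were highest in PBS 54, and Mup17 had 10.1 in PBS 15, 31.5 at the median and 74.5 in PBS 54. The haemoglobin genes Hba-a1, Hba-a2, Hbb-bs and Hbb-bt were highest in PBS 53 or PBS 54, with 8.89 in PBS 13, 13.5 at the median and 31.9 in PBS 54 for Hbb-bs. PBS 12 was the lowest tumour in 39 of the 100 most variable protein-coding genes, against 19.6% of all 9660 ranked. It was the highest in 0 of the 100, against 25.5%. Among the 30 other genes, those lowest in PBS 12 included Srcap, Phactr2 and Zfp871. Srcap, a chromatin remodeller, had 17.1, 2.85, 14.8, 12.4, 14.8 in PBS 11 to 15 and 15.7, 16.4, 11.1, 13, 14 in PBS 51 to 55, and Phactr2 had 1.17 in PBS 12, 5.77 at the median and 8.09 in PBS 14. Zfp871, a zinc finger gene, had 3.35 in PBS 12, 21.1 at the median and 36 in PBS 55. Lars2, the mitochondrial leucyl-tRNA synthetase, had 49.7 in PBS 15, 59.9 at the median and 336 in PBS 53, and its high tumour PBS 53 is the one with high Rn18s-rs5. Without PBS 53, Lars2 spanned 49.7 to 72 CPM and was not among the 100.

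**Figure D4:**
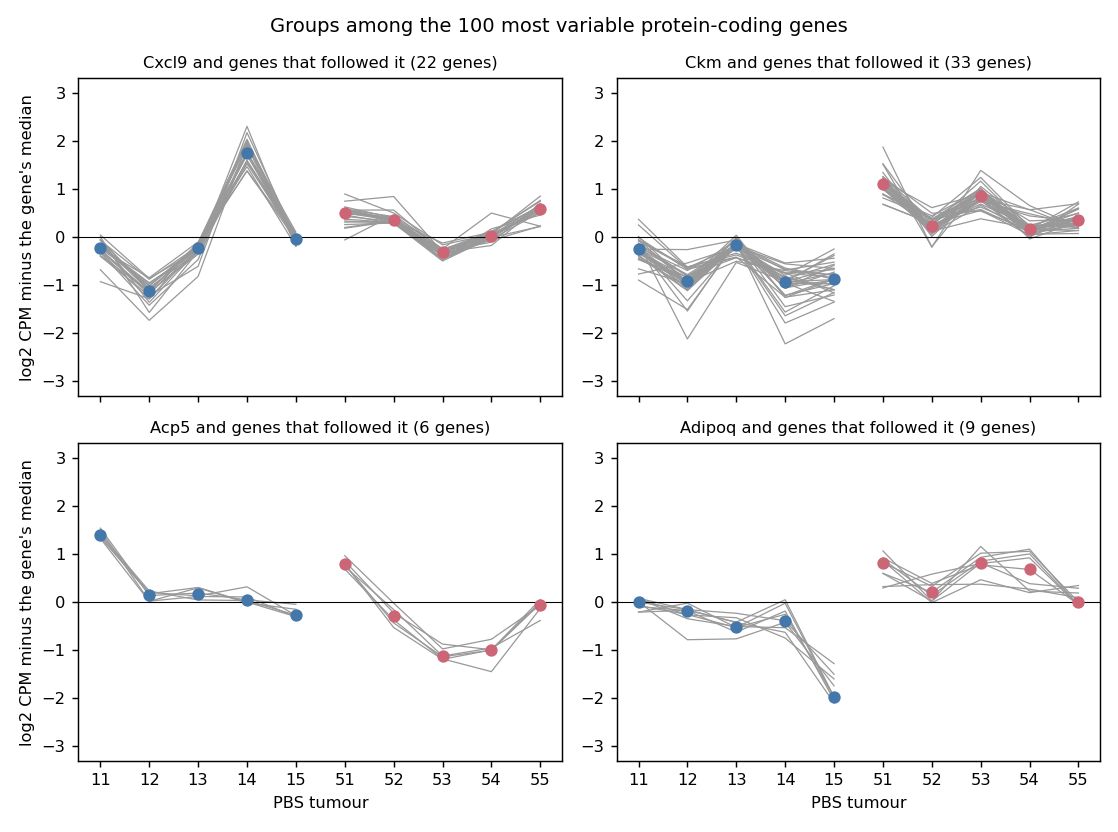
Log2 CPM minus the gene's median over 10 PBS tumours for the 4 groups among the 100 most variable protein-coding genes. A grey line joins the values of 1 gene within a series and the points are the medians of the group, with PBS 14 at 1.75 for the genes that followed Cxcl9 and PBS 15 at -1.89 for those that followed Adipoq.

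Promoters of the interferon response and skeletal muscle lists, which share 7 and 12 genes with the groups of Cxcl9 and Ckm, were read from RefSeq (GRCm38.p6, 250 bases before to 50 after the start). A motif of interferon-stimulated response elements, GAAA then any 2 bases then GAAA on either strand, was in 12 of 18 promoters found for the interferon list (66.7%), against 3.49% of all 27025 promoters. The E-box CAGCTG, known from muscle regulatory factors, was in 7 of 13 promoters of the muscle list (53.8%), against 16.1%, and TATAAA on the gene's strand in 4 of 13 (30.8%), against 8.88%. Over the 100 most variable protein-coding genes, TATAAA was in 9 of 67 promoters found (13.4%). Of the 7655 promoters found for all ranked protein-coding genes, 4.19% held it. Matches of different motifs may overlap, searches were for these letters only, and a match is not a binding site. As examples, the promoter of Acta1 (chr8:123894726-123895025, minus strand) holds 1 TATAAA and 1 CAGCTG, and that of Gbp2 (chr3:142620413-142620712, plus strand) holds 1 match of the spaced GAAA repeat, read on the other strand, all in capitals. Among the lead genes, the promoter of Cxcl9 had 1 TATAAA but no match of the spaced GAAA repeat. That of Ckm had 1 match of the E-box and no TATAAA in this window.
Acta1: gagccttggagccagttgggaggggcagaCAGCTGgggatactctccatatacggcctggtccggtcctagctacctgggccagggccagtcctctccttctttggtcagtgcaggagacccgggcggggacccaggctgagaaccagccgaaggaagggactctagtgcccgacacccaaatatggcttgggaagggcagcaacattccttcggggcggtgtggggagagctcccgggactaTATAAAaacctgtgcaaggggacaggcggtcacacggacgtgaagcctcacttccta
Gbp2: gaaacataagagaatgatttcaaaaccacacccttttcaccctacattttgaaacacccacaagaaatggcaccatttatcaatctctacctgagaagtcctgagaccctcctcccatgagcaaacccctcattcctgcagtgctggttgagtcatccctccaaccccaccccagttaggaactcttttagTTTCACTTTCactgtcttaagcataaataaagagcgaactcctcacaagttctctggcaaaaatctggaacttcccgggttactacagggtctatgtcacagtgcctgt

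The series of titles was compared, 5 tumours against 5, to see whether untreated tumours differed between them. By edgeR's quasi-likelihood test, 11 of 14331 genes were higher in the series beginning with 5 at an adjusted p below 0.05 and a log2 fold change of at least 1 (0.0768%), and 0 were lower (0%). Without the fold minimum, 20 were higher (0.14%) and 1 was lower (0.00698%), and 817 and 742 had an unadjusted p below 0.05. DESeq2 called 115 higher and 5 lower, and edgeR with all 39 tumours in 1 fit called 0 higher and 0 lower. The 11 genes included several of muscle. Ppp1r3a, which targets a phosphatase to glycogen, had 1.73 in PBS 12, 4.86 at the median and 9.13 in PBS 51 and was higher by 1.53 (SE 0.20; adjusted p = 0.0224) on the log2 scale. Mlxipl, a glucose-sensing transcription factor, was higher by 1.40 (SE 0.22; adjusted p = 0.0344), the kinase gene Alpk3 by 1.30 (SE 0.18; adjusted p = 0.0269), the sodium channel subunit Scn4b by 1.21 (SE 0.19; adjusted p = 0.0335) and Ano5 by 1.11 (SE 0.19; adjusted p = 0.0437), all from edgeR. The gene that was lower was Gm5869, with a change of -0.30 (SE 0.05; adjusted p = 0.0396) from edgeR. Without PBS 11, 12, 15 or 53, 0 genes were called, without PBS 51, 1, without PBS 52, 6, and without PBS 55, 5.

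Of 15 skeletal muscle genes tested, 15 had the higher mean in the series beginning with 5, with a median log2 difference of 1.25, against a median of -0.01 over all genes tested. In 13 of the 15, each tumour of that series was above each of the other, which was so for 1.56% of all genes, with 1.42% the other way. The muscle genes varied together, Acta1 and Ckm at r = 0.99, so the 13 are not independent results. Of these 15 genes, 1, Mybpc2, passed edgeR's adjusted threshold, with a change of 0.97 (SE 0.14; adjusted p = 0.0381). Ckm differed by 1.33 (SE 0.30; adjusted p = 0.164) and Acta1 by 1.03 (SE 0.26; adjusted p = 0.199) in the same edgeR test, which did not pass. The adipocyte list had a median log2 difference of 1.03 with 0 of 8 genes passing, and the red cell and platelet list 0.91 with 0 of 7. The interferon list had a median of -0.02 with 0 of 26, the T cell list 0.02 with 0 of 13 and the macrophage list -0.10 with 0 of 14.

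Relations between marker genes were tested for 8 pairs across the 10 tumours by permutation, with p adjusted over the 8. Acta1 and Ckm, both of muscle, followed each other most closely, with r = 0.99 (permutation adjusted p = 0.00016) and rho = 1 (permutation adjusted p = 0.00016), and r stayed at 0.99 without the 2 tumours farthest from the median of Acta1. Within the series r was 0.996 and 0.994. Slc2a1 and Vegfa, which hypoxia is known to raise, had r = 0.81 (permutation adjusted p = 0.00291) and rho = 0.85 (permutation adjusted p = 0.0105), 0.69 without the 2 farthest tumours, and 0.93 and 0.52 within the series.

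Cd8a and Cxcl9 had r = 0.87 (permutation adjusted p = 0.00268) and rho = 0.71 (permutation adjusted p = 0.0718). Without the 2 farthest tumours r was 0.67, and without PBS 14 it was 0.68 with an exact permutation adjusted p of 0.126, so the call, though not the sign, was lost without PBS 14. H2-Ab1 and Cxcl9 had r = 0.81 (permutation adjusted p = 0.0174) and rho = 0.66 (permutation adjusted p = 0.0899), with 0.56 without the 2 farthest and 0.52 without PBS 14 (exact permutation adjusted p = 0.247). Within the series r was 0.95 and 0.41 for Cd8a and Cxcl9, and 0.91 and 0.03 for H2-Ab1 and Cxcl9. Csf1 and Csf1r, ligand and receptor, had r = 0.69 (permutation adjusted p = 0.0455) but rho = 0.37 (permutation adjusted p = 0.465), and r was -0.33 without the 2 farthest tumours, so this relation also rested on those tumours. Within the series its r was 0.86 and -0.38. Cd3e and Foxp3 (r = 0.54; permutation adjusted p = 0.146), Ptprc and Mki67 (r = 0.13; permutation adjusted p = 0.759) and Pecam1 and Vegfa (r = 0.11; permutation adjusted p = 0.759) did not pass. Their rho was 0.33, 0.15 and -0.030, with permutation adjusted p of 0.465, 0.780 and 0.945, and r without the 2 farthest tumours was 0.07, 0.06 and -0.37. Values centred within each series gave r = 0.87 for Cd8a and Cxcl9 (exact permutation adjusted p = 0.0419) and 0.79 for Slc2a1 and Vegfa (exact permutation adjusted p = 0.0419). Centred values of H2-Ab1 and Cxcl9 (r = 0.84; exact permutation adjusted p = 0.116) and of Csf1 and Csf1r (r = 0.60; exact permutation adjusted p = 0.203) did not pass.

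**Figure D5:**
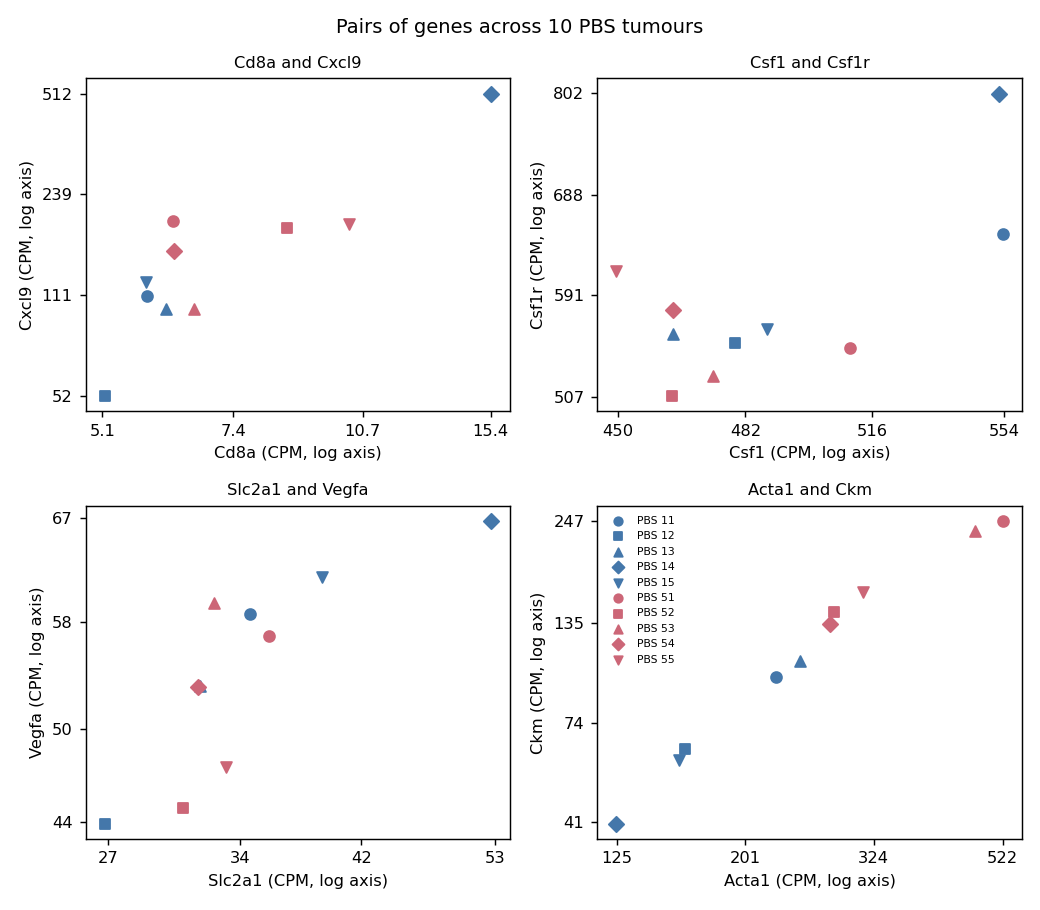
CPM of 4 pairs of genes in 10 PBS tumours (log axes), with blue and red for the series beginning with 1 and 5. Acta1 and Ckm lie on 1 line (r = 0.99), while PBS 14 lies apart at the upper right for Cd8a and Cxcl9 and at the top for Csf1 and Csf1r.

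Principal components of variance-stabilised values also placed PBS 14 and PBS 12 at opposite ends. Over the 500 most variable genes, 183 of them pseudogenes, the first component held 21.6% of the variance, with PBS 14 at 13.9 and PBS 12 at -12.5, and the second held 18.5%, with PBS 53 at 14.8. Without PBS 53 they held 26.2% and 14.9%. With PBS 53, the ends of the second held Rn18s-rs5, Lars2 and the copies of mitochondrial genes. With protein-coding genes alone, a choice made after seeing the data, the first component held 41.8%, with PBS 14 at 13.8 and PBS 12 at -7.67, and Gbp4, Cxcl9 and Gbp2b at its upper end. The second held 26.9%, with PBS 51 at 6.41, PBS 53 at 5.8 and PBS 12 at -6.16, and Myh4, Myh1 and Ckm near its upper end.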

How the data were processed

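RNA-seq of 39 AB1-HA tumours was deposited as 1 table of read counts per gene. Per the methods and the submitters' processing notes, the authors made these counts from single-end reads of 100 bases with bcl2fastq 2.20.0.422, HISAT2 2.0.4 and SummariseOverlaps; strand and the treatment of reads with several matches are not given in the sources used here. The methods call the genome mm11, but gene IDs matched GENCODE M21 (GRCm38), whose coordinates and exon lengths were used. Tumours were grouped by the treatment label PBS and the first digit of the title.

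CPM used TMM in edgeR 4.0.16 (R 4.3.3). Total counts were 16155683 to 23114796. The spread was the SD of log2 CPM (prior count 2) over genes with a mean of at least 5 CPM. The series were compared with edgeR's quasi-likelihood test after filterByExpr with Benjamini-Hochberg adjustment, and with DESeq2 1.42.0 as an alternative. On simulated counts of 14195 genes in 5 against 5 tumours, edgeR called 43 of 50 genes changed by 1 on the log2 scale by adjusted p alone. With the fold minimum of 1, which lies at that change, it called 26 of these and 49 of 50 changed by 1.5, with 2 false calls. The changed genes were drawn at random and simulated independently, so these rates need not hold for the variable muscle genes. Pvalb differed by 1.56 between the real series (edgeR adjusted p = 0.168) and was not called. Correlations used two-sided permutation tests of log2 CPM (100000 resamples, exact under 10 tumours; scipy 1.17.1), adjusted over 8 pairs. Principal components used DESeq2's variance-stabilised values.

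Members, lists and pairs were chosen with earlier results of these data known. Named were the 20 genes of highest CPM and of highest TPM, the 30 most variable, the 5 called genes of largest change, genes of the pairs, and members of the 38 lists that were abundant, scarce, variable or define a cell type. The ranking of protein-coding genes, their groups, the other genes named from it and the interferon and muscle motifs were added after values were seen. Alternatives were other scalings, filters, tools and each tumour left out. Some results are not reported here.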

Additional observations from a re-analysis of the deposited data

Results flagged for a closer look

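A tumour was picked out where its gap to the nearest other tumour was a larger share of the range over the 10 tumours than the 95% critical value of Dixon's test allows. This was tried for 105 measures, of which 31 passed. Chance gives about 1 in 20 for measures not chosen for their spread. Many of the genes tried came from the ranking by spread, so their passes cannot be read against that rate, and measures that move together are not independent.

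PBS 14 was the high end in most of them. By list, the gap as a share of the range was 0.485 for hypoxia, 0.754 for pan-leukocyte, 0.477 for macrophage, 0.682 for monocyte, 0.521 for T cell, 0.689 for CD8 and cytotoxic, 0.581 for NK cell, 0.735 for MHC class I, 0.712 for MHC class II, 0.607 for interferon response and 0.724 for checkpoint ligands and receptors. By gene, it was 0.498 for Cd8a, 0.520 for Csf1r, 0.688 for Cxcl9, 0.691 for H2-Ab1, 0.500 for Ptprc, 0.521 for Slc2a1, 0.575 for Ubd, 0.747 for Acod1, 0.746 for Serpina3g, 0.592 for Apol6, 0.678 for Gbp4, 0.548 for Lcn2, 0.673 for Gbp10 and 0.698 for Gbp8. On the CPM scale the tumour thus stood apart in these leukocyte, MHC and interferon lists at once. Not all leukocyte lists followed, the dendritic cell sum being highest in PBS 52, at 260 CPM against 242 in PBS 14. PBS 14 was highest in 3 of 12 dendritic cell genes and 2 of 7 B and plasma cell genes, against 18.8% of all ranked protein-coding genes. The B and plasma cell sum was nevertheless highest in PBS 14, at 89.1 CPM against 76 in PBS 52. Of the 4 NK cell genes, 2 were highest in PBS 14 and 2 in PBS 55. PBS 14 was also highest in hypoxia genes, and it was lowest in 12 of 23 collagen and matrix genes. Fewer cells of a type and less RNA per cell cannot be told apart here, and no measure of cell content other than RNA was used here.

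PBS 53 was the high end for Rn18s-rs5 (0.964) and the low end for Gm28437 (0.471), a copy of mitochondrial sequence. PBS 55 was the high end of the keratinocyte list (0.612), which summed to 15.9 CPM there. Among copies of other genes, PBS 52 was the high end for Rpl10-ps3 (0.692) and PBS 15 for Gm8797 (0.989) and Gm11273 (0.526).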

How the results depend on the processing

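The count of genes higher in the series beginning with 5 (11, with 0 lower) was 115 with 5 lower under DESeq2, 31 without the low-count filter, 20 with 1 lower without the fold minimum, 0 with all 39 tumours in 1 edgeR fit, and 0 to 16 when each tumour was left out (0 lower throughout). With the last digit of the title as a replicate block it was 84. Same-digit tumours correlated in their deviations at 0.003 to 0.190, so the digit was not taken as a pairing. Correlations moved as follows. Ranks gave 0.71 for Cd8a and Cxcl9, 0.66 for H2-Ab1 and Cxcl9, 0.37 for Csf1 and Csf1r, none of which passed, and -0.030 for Pecam1 and Vegfa. Centring within series gave 0.84 for H2-Ab1 and Cxcl9 and 0.60 for Csf1 and Csf1r, and CPM without TMM gave 0.67 for the latter, none of which passed. When each tumour was left out, r ran from 0.68 to 0.92 for Cd8a and Cxcl9, 0.52 to 0.86 for H2-Ab1 and Cxcl9, -0.39 (without PBS 12) to 0.58 for Ptprc and Mki67, 0.21 to 0.71 for Cd3e and Foxp3, -0.35 (without PBS 52) to 0.32 for Pecam1 and Vegfa, 0.75 to 0.87 for Slc2a1 and Vegfa, and 0.44 to 0.81 for Csf1 and Csf1r. Cd3e and Foxp3 passed at 0.71 without PBS 51. Of the 100 most variable genes, 57 were shared with the ranking from a mean of 1 CPM. Of the protein-coding 100, 39 were shared from 1 CPM and 61 after centring within series. The first component held 21.9% to 26.2% when each tumour was left out and 41.8% with protein-coding genes. The causes were not tested. Mitochondrially encoded genes were not analysed here, so totals without the nuclear copies were tried instead, and 2 listed pairs were not run because Gzmb and Adgre1 were not analysed here. Another 144 values of these results, and all 456 of the summed gene lists, kept their direction and side of the threshold or moved by less than the spread. Genes near 0 CPM rest on few counts.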
